A study of Mus musculus with 6 samples.

Results

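A TaqMan panel of miRNA assays held 8 assays that carry miRNA names but are taken to detect fragments of transfer RNA or ribosomal RNA: miR-720, miR-1937b, miR-1937c, miR-712, miR-712*, miR-2134, miR-2138 and miR-2146. They were found by name among the 596 miRNA assays of a table of threshold cycles, and the 8 names gave 8 rows. Macrophages were grown from femoral marrow of male mice, 6 to 8 weeks of age, over 7 days in L929-conditioned medium, which supplies macrophage colony-stimulating factor. In 3 KO mice (LysM-Cre, Dicer flox/flox, Apoe-/-) the driver deletes Dicer in the myeloid lineage, and 3 WT mice (LysM-Cre, Dicer wt/wt, Apoe-/-) kept both Dicer alleles. All mice thus lacked Apoe and carried the driver. Dicer mRNA was not among the targets, and how complete the deletion was is not known from these data.

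Most miRNAs need Dicer, an RNase III enzyme that releases them from hairpin precursors. Transfer RNA and ribosomal RNA are made without this step, and whether Dicer cuts any of them into pieces was not tested here. Short pieces of both are abundant in small RNA preparations. Some such pieces were first named as miRNAs and later withdrawn from the miRNA catalogue. miR-720 is known as a fragment of a threonine transfer RNA, and the miR-1937 names belong to entries later matched to transfer RNA. miR-712 is known in mouse as a product of a spacer of the ribosomal RNA precursor and as a flow-regulated RNA of endothelium, and miR-712* names the other strand of its hairpin. The origins of miR-2134, miR-2138 and miR-2146 are taken as ribosomal. These origins come from general knowledge of the names, and no sequences were compared here.

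All 8 assays lay in the second block of rows, here called pool B, which held 261 miRNA assays, 5 endogenous controls (U6, U87, Y1, snoRNA135 and snoRNA202) and 1 plant miRNA. The threshold cycle (Ct) is the PCR cycle at which the signal crosses a threshold, so a Ct lower by 1 stands for a doubling of template. Wells without amplification are listed at Ct 40, and values at or above a ceiling of Ct 35 were treated as not measured. The mean Ct of the 5 controls of pool B, the only measure of the amount of RNA, was 22.1, 19.3 and 19.3 in KO replicates 1, 2 and 3, against 21.1, 19.3 and 19.0 in WT replicates 1, 2 and 3. The first replicate was latest in each genotype, and the group means were 20.2 ± 1.66 in KO and 19.8 ± 1.12 in WT (SD, n = 3 per group; two-sided exact permutation p = 0.7, where 3 against 3 cannot give less than 0.1). The myeloid miR-223 was measured in all 6 samples, at Ct 20.4, 16.9 and 16.9 in KO and 16.5, 15.3 and 15.0 in WT, and the liver miRNA miR-122 stood at Ct 40 in all 6. The stromal miR-145 and the epithelial miR-200c were also measured in all 6 samples, at Ct 22.6 to 28.0 and 23.8 to 30.0, and the part of other cell types in the results was not tested. In bulk RNA, fewer cells of a type and less RNA per cell cannot be told apart.

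The assays split by how early they amplified. miR-2134 was among the earliest, with Ct 15.7, 12.9 and 14.9 in KO and 15.1, 13.0 and 13.4 in WT. miR-1937c followed with Ct 16.0, 15.5 and 14.9 in KO and 15.7, 16.4 and 15.1 in WT. The groups overlapped in both. miR-720 had Ct 19.7, 19.0 and 18.1 in KO and 19.6, 19.2 and 17.9 in WT, so each KO sample lay within 0.29 cycles of the WT sample of the same replicate number.

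miR-2146 had Ct 20.9, 18.9 and 18.8 in KO and 20.01, 19.0 and 18.6 in WT. miR-2138 had Ct 21.0, 18.1 and 20.6 in KO and 19.5, 18.6 and 19.7 in WT. miR-712 was later, with Ct 27.0, 24.7 and 25.4 in KO and 26.5, 25.0 and 25.6 in WT. The KO and WT ranges overlapped in all 3, and KO replicate 1 was the latest of the 6 samples in each. miR-712* stood at Ct 40 in all 6 samples, as did 110 of the 261 miRNA assays of pool B, so it was not tested.

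miR-1937b stood apart. Its Ct was 14.2, 13.4 and 13.0 in KO, against 37.7, 14.3 and 40 in WT. It thus amplified early in all 3 KO samples and in WT replicate 2, but above the ceiling in WT replicate 1 and not at all in WT replicate 3. In the 4 samples below the ceiling it came 1.78 to 2.12 cycles before miR-1937c of the same sample. In WT replicates 1 and 3 miR-1937c was measured at Ct 15.7 and 15.1. Among the 48 miRNA assays of both pools with a Ct below 20 in some sample, 3 also had a sample at or above the ceiling: miR-1937b, miR-495 and miR-590-5p. miR-495 stood at Ct 40 in KO replicate 1 and at 16.9 to 19.6 in the other 5 samples, and miR-590-5p stood at Ct 40 in KO replicate 3 and at 17.6 to 19.7 in the others. These 2 assays were singled out after their values were seen, and whether such wells failed was not tested.

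**Figure D1:**
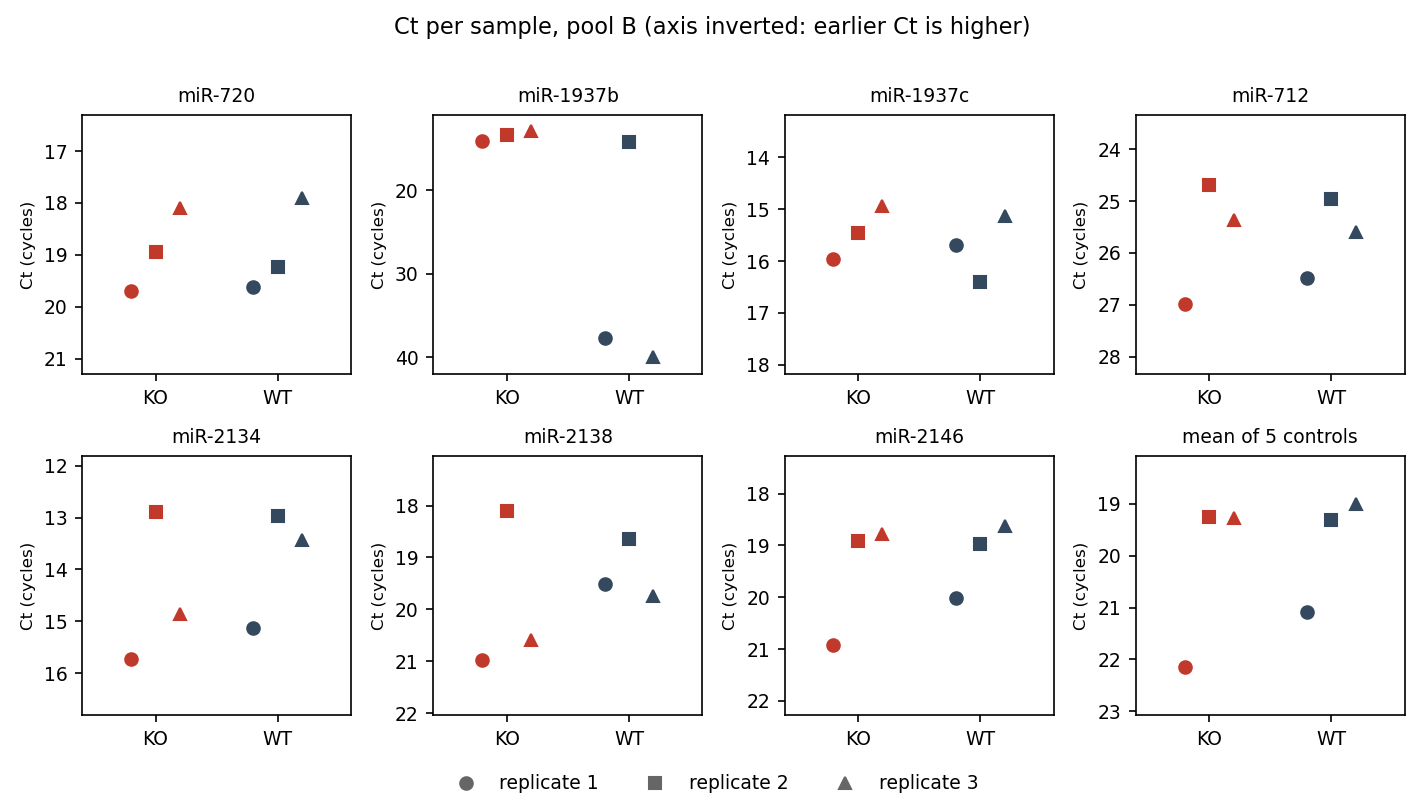
Ct of the 7 assays that amplified and of the mean of the 5 controls in pool B, in KO (left of each panel) and WT samples, with the replicate number as the symbol. The y axis is in cycles and inverted, and each panel spans 5 cycles except that of miR-1937b, where WT replicates 1 and 3 lie at 37.7 and 40; in the other 6 assays the KO and WT samples overlap.

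The first question was whether these RNAs changed with Dicer relative to RNAs that Dicer does not make. Levels were expressed as the mean Ct of the 5 controls of the same pool and sample minus the Ct of the assay, a log2 level relative to the controls, and KO was compared with WT by limma over the 282 assays measured in all 3 samples of at least 1 group. The 6 assays other than miR-1937b and miR-712* were measured in all 6 samples, while miR-1937b entered through KO alone. At an adjusted p under 0.05, 0 of the 7 tested assays passed. Among all 282 tested assays 37.6% passed, 37.2% lower and 0.355% higher in KO, and among the 103 tested in pool B 21.4% passed, 20.4% lower and 0.971% higher. The share over all assays varied with the sample left out. The fit called 105 assays lower, but 2 without WT replicate 1, without WT replicate 2 or without WT replicate 3, and 3 without KO replicate 2. It called 101 lower without KO replicate 1 and 112 without KO replicate 3. For miR-1937b, higher in KO, the unadjusted limma p was under 0.05, but it is set in part by the filter and the ceiling and is not counted. Of the 6 without miR-1937b, 0 reached an unadjusted p under 0.05. In either direction 53.9% of all 282 reached it, with 0.709% of the 282 higher in KO, and 35% of pool B, with 1.94% higher. The difference was above 0 in 5 of the 7 and in 4 of those 6, against 28.2% of pool B and 12.4% of all tested assays. Every KO sample lay below every WT sample in 0 of the 7, against 36.9% of pool B and 59.9% of all. Every KO sample lay above every WT sample in miR-1937b and in 0 of the 6 others, against 1.94% of pool B and 1.06% of all. The median difference, KO minus WT, was 0.44 on the log2 scale over the 7 assays and 0.26 over the 6 without miR-1937b, against -1.43 over the 96 other tested assays of pool B and -1.91 over all 282. Without KO replicate 1 the medians of the 7 and of the 6 were -0.13 and -0.15, without WT replicate 2 they were 0.03 and 0.00238, and without WT replicate 3 they were 0.08 and 0.03.

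Among the transfer RNA fragments, miR-720 had a log2 level relative to the controls of 2.45, 0.31 and 1.18 in KO, against 1.46, 0.07 and 1.10 in WT. The means were 1.31 ± 1.08 in KO and 0.88 ± 0.72 in WT (SD, n = 3 each), a difference of 0.44 with a 95% interval of -1.29 to 2.16 (limma, adjusted p = 0.655). KO was above WT in all 3 same-number pairs, by 0.99, 0.24 and 0.08, and the ranges overlapped. Here and below, a pair means only 2 samples of the same replicate number, since the labels state no pairing. Without KO replicate 1 the difference was -0.13. For miR-1937c the levels were 6.18, 3.79 and 4.33 in KO, against 5.39, 2.90 and 3.87 in WT. Its difference was 0.72 with a 95% interval of -1.42 to 2.86 (limma, adjusted p = 0.563), and KO was above WT by 0.79, 0.89 and 0.47 in the pairs. Without KO replicate 1 it was 0.01, and without WT replicate 2 it was 0.14. In both assays the first replicate was the highest and the second the lowest sample of each genotype.

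For miR-1937b the levels were 7.96, 5.82 and 6.28 in KO, and in WT replicate 2 the level was 5.01, with the other WT samples at the ceiling, at -13.9 and -16.0. The fitted difference was 14.99 (limma, adjusted p = 0.0555, or 0.0759 in the fit with replicate numbers as a block), and the KO and WT samples did not overlap. Since the assay entered through KO alone and 2 of its 3 WT values are the ceiling, this value and its p are set in part by the filter and the ceiling, and they are given as a description and not as a test. In the pair of second replicates, where both samples amplified, the difference was 0.80. The fitted value rests on the WT wells: without WT replicate 2 it was 21.64 (adjusted p = 9.53e-05), and without WT replicate 1 or 3 it was 12.18 and 11.14 (adjusted p = 0.146 and 0.12). Over all alternatives the adjusted p ran from 9.53e-05 to 0.177.

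Among the ribosomal fragments, miR-712 had a log2 level relative to the controls of -4.84, -5.43 and -6.08 in KO, against -5.41, -5.65 and -6.60 in WT. The difference was 0.44 with a 95% interval of -0.98 to 1.85 (limma, adjusted p = 0.598). KO was above WT in all 3 pairs, by 0.57, 0.22 and 0.52, and the third replicate was the lowest in each genotype. Without KO replicate 1 or WT replicate 3 the difference was 0.13 and 0.08. miR-2146 varied least, with 1.22, 0.35 and 0.50 in KO, against 1.07, 0.34 and 0.38 in WT. Its difference was 0.09 with a 95% interval of -1.16 to 1.35 (limma, adjusted p = 0.895). The sign of so small a difference was not stable, and it was -0.17 without KO replicate 1, -0.18 with U6 alone as reference and -0.03 with Y1 alone.

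miR-2134 had levels of 6.42, 6.36 and 4.42 in KO, against 5.95, 6.34 and 5.57 in WT. The difference was -0.22 with a 95% interval of -1.88 to 1.43 (limma, adjusted p = 0.815). KO replicate 3 was the lowest of the 6 samples, and without it the difference was 0.44. For miR-2138 the levels were 1.17, 1.15 and -1.31 in KO, against 1.56, 0.67 and -0.73 in WT, a difference of -0.16 with a 95% interval of -2.37 to 2.04 (limma, adjusted p = 0.895). Replicate 3 was the low sample in both genotypes, and without KO replicate 3 or WT replicate 1 the difference was 0.66 and 0.37. Over these 6 assays the narrowest 95% interval, that of miR-2146, allowed a KO level of 0.446 to 2.55 times that of WT, while that of miR-1937c allowed 0.372 to 7.25 times and that of miR-2138 0.194 to 4.10 times.

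**Figure D2:**
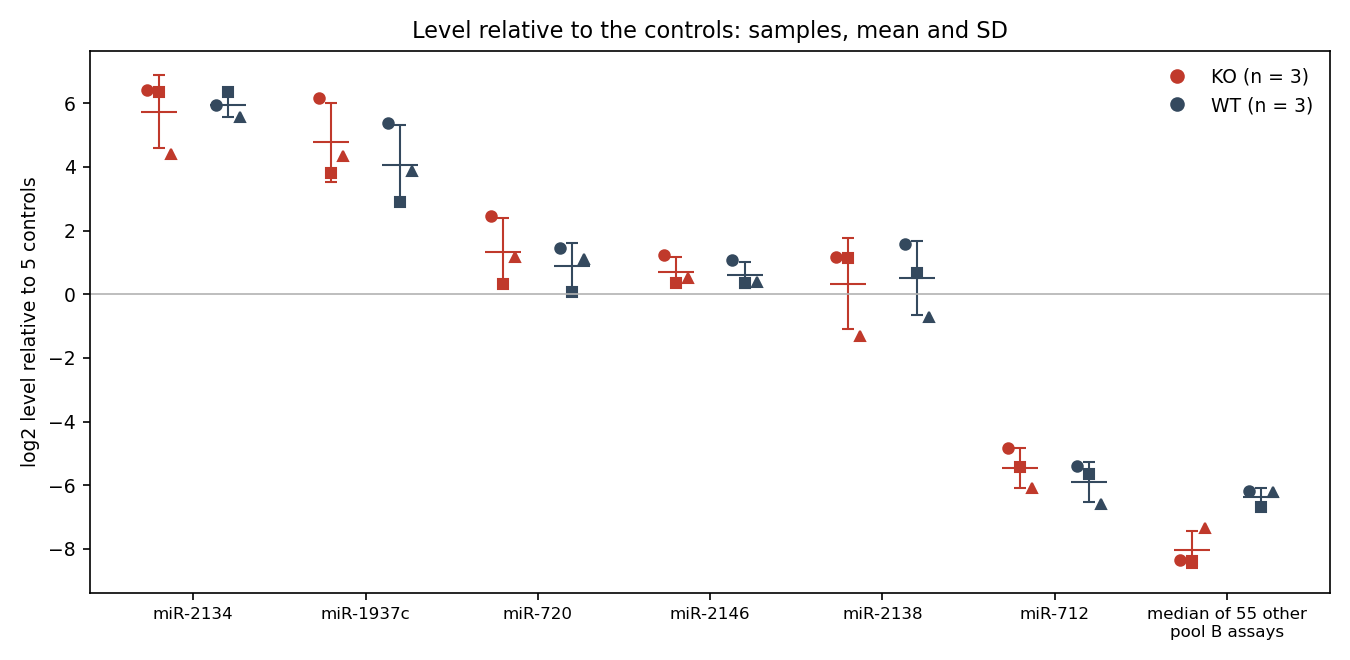
Log2 level relative to the 5 controls of pool B for the 6 assays measured in all 6 samples and for the median of the 55 other pool B miRNA assays measured in all 6, with KO (red) left of WT (dark), circles, squares and triangles for replicates 1, 2 and 3, and bars for the mean and SD (n = 3). The 6 assays overlap between genotypes, while the medians of the other assays are -8.33, -8.38 and -7.35 in KO and -6.17, -6.68 and -6.22 in WT.

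Ordered by the mean level over the 6 samples, the assays without miR-1937b were miR-2134, miR-1937c, miR-720, miR-2146, miR-2138 and miR-712. Levels of different assays also depend on how well each assay primes, so this is an order of signals. miR-2134 was above miR-1937c in 6 of 6 samples, by 0.97 ± 1.39 in KO and 1.91 ± 1.45 in WT on the log2 scale (SD, n = 3 each), a gap within the spread between samples in KO and above it in WT. miR-1937c was above miR-720 in 6 of 6 samples, by 3.45 ± 0.29 in KO and 3.17 ± 0.66 in WT. miR-720 was above miR-2146 in 4 of 6 samples and miR-2146 above miR-2138 in 3 of 6, so these 3 neighbours did not differ beyond their spread. miR-712 lay below miR-2138 in 6 of 6 samples, by 5.79 ± 0.92 in KO and 6.39 ± 0.55 in WT. By mean Ct in KO, miR-1937b, miR-2134, miR-1937c, miR-720, miR-2146, miR-2138 and miR-712 took ranks 4, 6, 7, 8, 9, 10 and 25 among the 103 tested assays of pool B. By mean Ct in WT, miR-2134, miR-1937c, miR-720, miR-2146, miR-2138 and miR-712 took ranks 4, 6, 7, 8, 9 and 33, and miR-1937b, with 1 of 3 samples below the ceiling, rank 87.

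The second question was whether these assays moved apart from the miRNA assays of the same pool. The median of the 55 other pool B miRNA assays measured in all 6 samples was 1.67 lower in KO relative to the controls (a mean of -8.02 in KO against -6.36 in WT). With the median Ct of those 55 assays as the reference in place of the controls (and the 140 such assays of the first block for that block), the log2 differences, KO minus WT, of the 7 tested assays ran from 1.44 to 16.65, with a median of 2.10, or 1.93 without miR-1937b. The median of the 96 other tested assays of pool B was 0.23 on this scale, and 52 of them were above 0. All 7, or 6 of 6 without miR-1937b, were above 0, against 57.3% of the tested assays of pool B and 67.7% of all 282. Each pool B difference here is that relative to the controls plus the same 1.67, so the signs share 1 reference and are not separate results. At an adjusted p under 0.05, 0 of the 7 passed with limma, against 0.355% of all 282 tested assays and 0.971% of pool B. An unadjusted p under 0.05 was reached by 5 of the 7, each higher in KO, against 14.9% of all 282 and 23.3% of pool B higher in KO (17.4% and 26.2% in either direction). Without miR-1937b, which entered through KO alone, it was 4 of 6. With replicate numbers as a block, a pairing that the labels do not state, it was 6 of 7, or 5 of 6 without miR-1937b. The assay added was miR-2138 (limma, unadjusted p = 0.0335). The shares higher in KO were then 21.3% of all 282 and 35% of pool B, and 0 of the 7 passed after adjustment. A departure of these assays from the other miRNA assays was therefore not established for any single assay at this number of samples.

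In this comparison miR-2146 was at 1.76 (95% interval 0.46 to 3.06; limma, adjusted p = 0.174), with levels relative to the other assays of 9.55, 8.73 and 7.85 in KO, against 7.24, 7.03 and 6.60 in WT. Every KO sample lay above every WT sample. miR-720 was at 2.10 (0.38 to 3.82; adjusted p = 0.203), with 10.78, 8.69 and 8.54 in KO, against 7.62, 6.75 and 7.32 in WT, and its groups did not overlap either. miR-712 was at 2.10 (0.33 to 3.87; adjusted p = 0.204), with 3.49, 2.95 and 1.27 in KO, against 0.76, 1.03 and -0.38 in WT. miR-1937c was at 2.38 (0.13 to 4.64; adjusted p = 0.271), with 14.51, 12.17 and 11.69 in KO, against 11.55, 9.58 and 10.09 in WT. The KO and WT samples were apart in these 2 assays as well. Without KO replicate 1 the differences were 0.75 for miR-2146, 0.79 for miR-720, 1.06 for miR-712 and 0.94 for miR-1937c.

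For miR-2134 and miR-2138 the groups overlapped on this scale. miR-2134 was at 1.44 (95% interval -0.82 to 3.71; limma, adjusted p = 0.427) and miR-2138 at 1.501 (-1.33 to 4.33; adjusted p = 0.512), and in both the lowest KO sample was replicate 3. Leaving out KO replicates 1, 2 and 3 in turn gave 0.36, 0.82 and 2.44 for miR-2134 and 0.34, 0.79 and 2.66 for miR-2138, and without WT replicate 3 miR-2138 was at 0.82. miR-1937b was at 16.65 (adjusted p = 0.204), again with WT at the ceiling in 2 of 3 samples, and with 23.47 and an adjusted p of 0.000961 without WT replicate 2, over a range of adjusted p from 0.000961 to 0.504 over all alternatives. Every KO sample lay above every WT sample in 5 of the 7 tested assays, and in 4 of the 6 without miR-1937b, against 26.2% of the tested assays of pool B and 23% of all 282. Every KO sample lay below every WT sample in 0 of the 7, against 12.6% and 7.8%. In the 3 pairs the differences were 3.16, 1.94 and 1.22 for miR-720 and 2.96, 2.59 and 1.60 for miR-1937c, 2.73, 1.92 and 1.66 for miR-712, and 2.32, 1.71 and 1.25 for miR-2146. They were 2.64, 1.72 and -0.02 for miR-2134 and 1.77, 2.17 and 0.56 for miR-2138, so KO was above WT in all 3 pairs of each assay but miR-2134. Without KO replicate 1, which had the latest controls, the median of the 7 was 0.79.

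**Figure D3:**
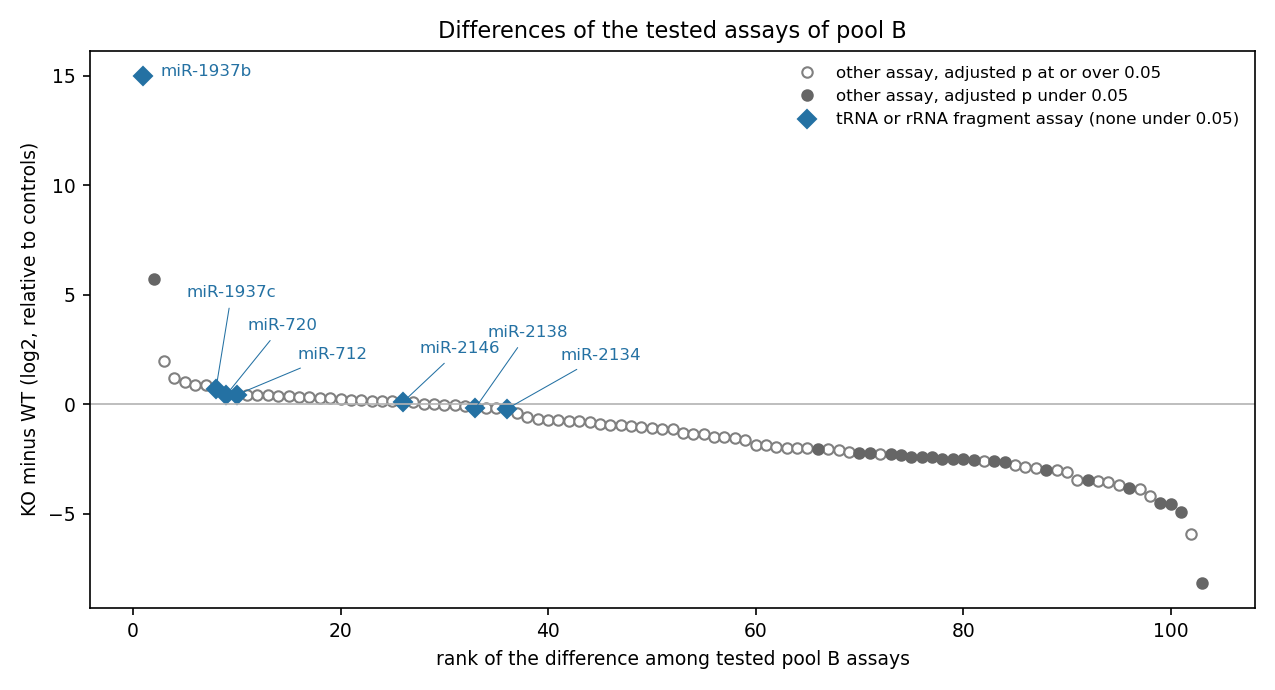
Differences between KO and WT relative to the controls (log2, y axis) of the 103 tested assays of pool B, ranked from the highest (x axis), with the 7 tested tRNA and rRNA fragment assays as diamonds and the other assays as circles, filled where the adjusted p was under 0.05. The 7 assays take ranks 1, 8, 9, 10, 26, 33 and 36, and the filled circles are 21 falls and 1 rise.

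**Figure D4:**
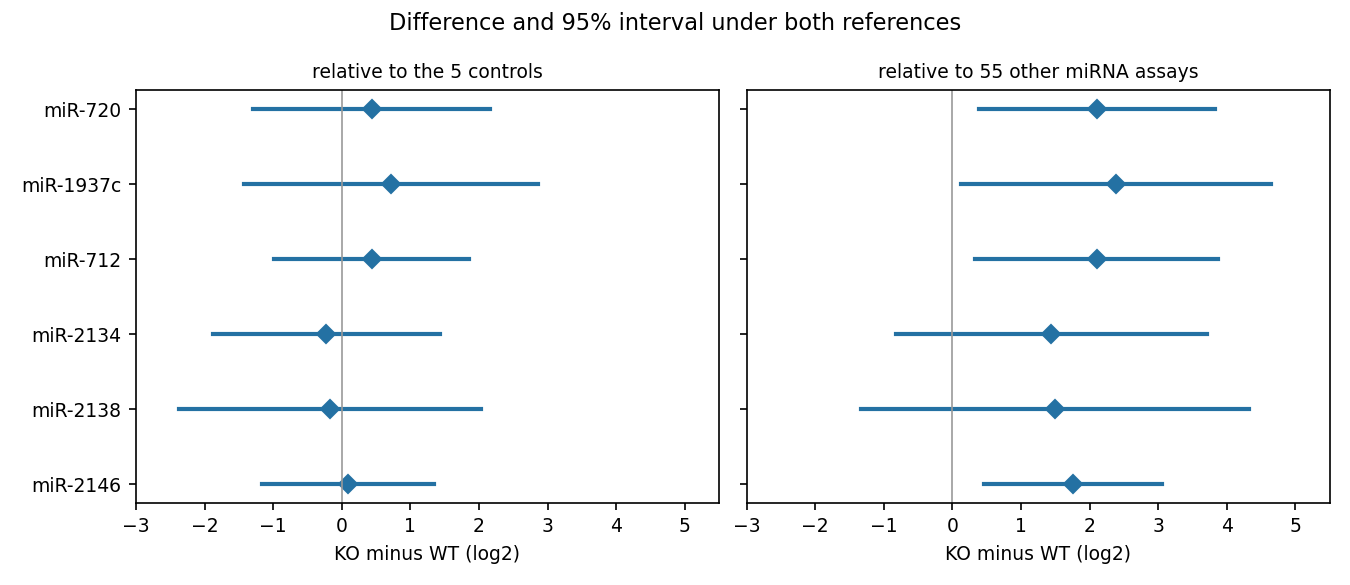
Difference between KO and WT (log2, diamonds) with its 95% interval from limma (lines; n = 3 per group) for the 6 assays measured in all 6 samples, relative to the 5 controls (left panel) and to the median of the 55 other miRNA assays (right panel). On the left all 6 intervals span 0, and on the right those of miR-2134 and miR-2138 span 0, before adjustment over the 282 assays.

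The choice of reference moved all assays alike and decided the sign of the smallest differences. With U6 alone as reference, miR-720, miR-1937c and miR-712 were at 0.16, 0.44 and 0.16, and miR-2134, miR-2138 and miR-2146 at -0.50, -0.44 and -0.18. With the mean of snoRNA135 and snoRNA202 the same assays were at 0.55, 0.83 and 0.55, and at -0.11, -0.05 and 0.21. Without any reference, as plain Ct differences turned in sign, they were at 0.01, 0.29 and 0.01, and at -0.65, -0.59 and -0.34. The median of the 96 other tested pool B assays was between -1.32 and -1.86 under each of these references. miR-1937b was at 14.71 with U6 alone (limma, adjusted p = 0.0498), a value again set in part by the filter and the ceiling.

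**Figure D5:**
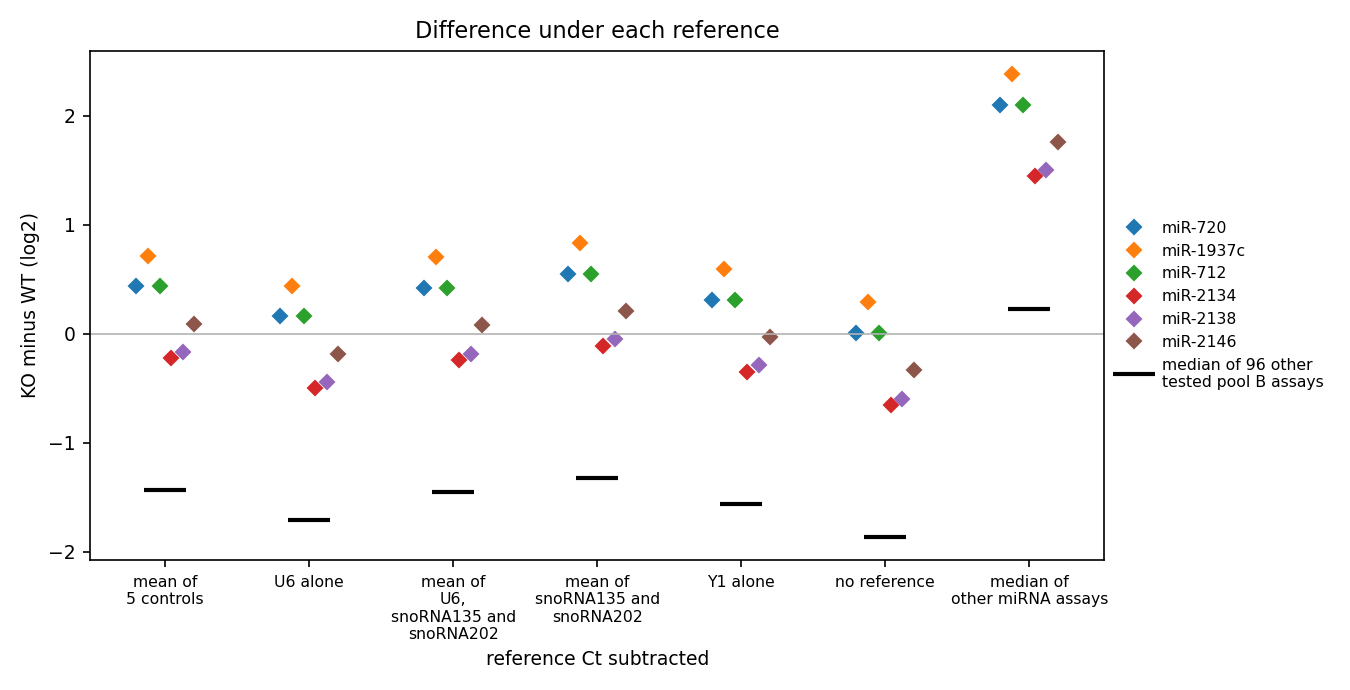
Difference between KO and WT (log2, y axis) of the 6 assays measured in all 6 samples (coloured diamonds) and the median of the 96 other tested pool B assays (black bars) under each reference (x axis). Under the control references and without a reference the diamonds lie between -0.65 and 0.83 and the bars between -1.86 and -1.32.

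The assays also differed in how they followed the amount of RNA. Over the 6 samples the mean Ct of the controls spanned 3.14 cycles, and single controls spanned 2.82 to 3.80. miR-1937c spanned 1.47 cycles, miR-720 1.79, miR-2146 2.29, miR-712 2.30, miR-2134 2.83 and miR-2138 2.86, so all 6 spanned less than the control mean. Of the 55 other pool B miRNA assays measured in all 6 samples, 10 did so, and their median span was 4.225 cycles. The controls were latest in the first replicate of each genotype, where the levels of miR-720, miR-1937c and miR-2146 relative to them were highest. The part of this in the differences above was not tested.

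Relative to the controls, some of the assays varied together over the 6 samples. Pearson's r was 0.942 between miR-720 and miR-1937c, 0.948 between miR-1937c and miR-2146 and 0.865 between miR-720 and miR-2146. It was 0.855 between miR-2134 and miR-2138 and 0.815 between miR-712 and miR-2138. Between miR-2134 and miR-720, and between miR-2134 and miR-1937c, it was -0.07 and 0.07. Between these sets r was also 0.681 for miR-712 and miR-2146, 0.576 for miR-712 and miR-1937c and 0.516 for miR-2138 and miR-2146, so the sets were not separate. These values describe 6 samples that share the same control Ct and the 2 genotypes, and no test was made of them.

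Among the 96 other tested assays of pool B, the closest profiles by this r over the 6 samples were found for each assay. These are the highest of 96 values for each assay, all levels share the same control Ct, and no test was made of them. The row named miR-1274a was closest to miR-2146 (r = 0.978) and miR-1937c (r = 0.967) and second for miR-720 (r = 0.853), which was closest to miR-1939 (r = 0.87). miR-1274a is known in human as a lysine transfer RNA fragment, and its own difference was 0.43 (limma, adjusted p = 0.748). In the authors' deposited table of ratios these values stand under the name miR-125b*, so the name of that row is uncertain. miR-712 was closest to miR-877* (r = 0.965), miR-2134 to miR-2135 (r = 0.859) and miR-2138 to miR-463* (r = 0.864). The second places were taken by miR-465C-5P for miR-712 and miR-2138 (r = 0.914 and 0.84), by miR-669n for miR-2134 (r = 0.705), by miR-878-3p for miR-1937c (r = 0.912) and by miR-1904 for miR-2146 (r = 0.914). For miR-1937b the closest was miR-21* (r = 0.676), and the next was miR-2135 (r = 0.534). Since WT replicates 1 and 3 of miR-1937b are at the ceiling, these r values are set in part by the ceiling. miR-21* was the 1 assay of pool B called higher in KO (5.71 relative to the controls, limma, adjusted p = 0.00537).

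Entries with neighbouring numbers, or questioned in the same way, were read beside these. Of 3 assays numbered next to these (miR-2135, miR-2136 and miR-2139), miR-2136 and miR-2139 stood at Ct 40 in all 6 samples. miR-2135 had Ct 24.8, 21.5 and 23.3 in KO and 24.4, 22.0 and 23.0 in WT, a log2 difference relative to the controls of 0.35 ± 0.68 (SE; limma, adjusted p = 0.704). Of 4 other questioned entries, miR-715 and miR-1959 stood at Ct 40 throughout. miR-690 was at -0.07 ± 0.51 (SE; adjusted p = 0.919), and miR-805, known as a mitochondrial sequence, was at -0.18 ± 0.54 (SE; adjusted p = 0.806). Of these 3 tested assays, 0 passed in either direction, against 37.6% of all 282 and 21.4% of pool B. Relative to the other miRNA assays, miR-2135, miR-690 and miR-805 were at 2.02, 1.59 and 1.48 and did not pass either (limma, adjusted p = 0.315, 0.102 and 0.101).

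In the authors' deposited table of fold changes, KO over WT, miR-720 stood at 1.48, miR-1937c at 1.65, miR-712 at 1.33, miR-2146 at 1.06, miR-2134 at 0.981 and miR-2138 at 0.959. Judged from the deposited ratios, these are ratios of arithmetic means relative to U6, snoRNA135 and snoRNA202. The differences above compare means of log2 levels relative to 5 controls, which put miR-2134 at 0.857 and miR-2138 at 0.892 times WT. The authors' deposited table gave miR-1937b as 10.4, a ratio of arithmetic means in which WT replicate 2 carries nearly all of the WT signal. miR-712*, without amplification in any sample, stood in the authors' deposited table at 1.70, and 110 pool B names carried that same value. Of these names 103 stood at Ct 40 in all 6 samples in the Ct table, and the other 7 are among the names that the ratio and Ct tables pair with different values.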

How the data were processed

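A mirVana kit gave total RNA, which was reverse transcribed and preamplified with TaqMan reagents, per the labels' protocols; instrument and software are not given in the sources used here. Ct scores were deposited by the authors for 596 miRNA, 10 control and 2 plant assays in 2 blocks of rows, each block with its own controls, beside ratios and fold changes (KO over WT) for the 596. Judged from its values, a deposited ratio equals 2 raised to the difference between the mean of snoRNA135, snoRNA202 and U6 and the assay's Ct, scaled to the geometric mean of WT. This held within 1% for all but 33 of 596 names, among them 0 of the 8 described here; for these 33 the ratio and Ct tables pair names and values differently, so the Ct table's names were used.

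Ct values at or above 35 were set to 35. limma 3.58.1 in R 4.3.3 (lmFit, eBayes, two-sided) compared genotypes over all tested assays with Benjamini-Hochberg adjustment, for both references; every adjusted p is from such a fit. The test was checked on simulated data with independent normal noise and no ceiling, a simpler setting than that of these data. Alternatives were the reference, ceiling, filter, a fit per block, the replicate block, each sample left out, and the deposited ratios. Figures used matplotlib 3.10.9 in Python 3.11.15. The members, lists and tests were chosen with earlier results of these data known. Named were all members, the controls, the 2 assays closest to each member and the tested members of both lists. Of 13 neighbouring and 7 questioned names listed, 3 and 4 had an assay, and the others were not analysed here. The labels call the samples biological replicates. Deviations from the group means correlated weakly between KO and WT samples of one number (0.23, 0.28 and 0.27 over assays). On that basis alone, drawn from these same data, the numbers were used as pairs, and whether the samples were paired is not known. The controls are the only gauge of RNA amount, and precision is limited by 3 samples a group.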

Additional observations from a re-analysis of the deposited data

How the results depend on the processing

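Relative to the controls, 15 of 18 alternatives left 0 of the fragment assays past the threshold. In the others the 1 assay past it was miR-1937b, whose p is set in part by the filter and the ceiling and is no test. These were U6 alone (14.71, adjusted p = 0.0498), a ceiling at Ct 32 (12.99, adjusted p = 0.0369) and the fit without WT replicate 2. Leaving out samples thus gave 0 to 1. The median of the 7 ran from -0.13 to 0.67 with a sample left out. The median of the 6 without miR-1937b, a summary chosen after seeing the data, was -0.011 with U6 alone, -0.16 without a reference and -0.15 to 0.58 with a sample left out. miR-2146 turned to -0.18 with U6 alone, -0.031 with Y1 alone and -0.34 without a reference. With a sample left out the ranges were -0.17 to 0.33 for miR-2146, -0.13 to 0.94 for miR-720, -0.57 to 0.44 for miR-2134 and -0.78 to 0.66 for miR-2138. miR-712 and miR-1937c stayed above 0 in all 18 alternatives. The lowest values were 0.0067 for miR-712 without a reference and 0.012 for miR-1937c without KO replicate 1. Both assays lay below Ct 32 throughout, so the ceiling, the filter, a fit per block and the replicate block could not change their differences. The deposited ratios repeat the reference of U6, snoRNA135 and snoRNA202. Over all assays, 105 were lower and 1 higher; there were 2 lower without a reference or a filter, 0 higher without a reference, 2 higher with U6 alone and 2 with a ceiling at Ct 32, and 2 to 112 lower and 1 to 3 higher with a sample left out. With the replicate block 118 were lower and 1 higher, and no call of these assays changed.

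Relative to the other miRNA assays, the differences of the 7 stayed above 0 in all 14 alternatives (miR-1937b in 13, since the filter on all 6 samples drops it). The filter, a fit per block and the replicate block leave the difference of each assay still tested as it was, so these alternatives could not change a sign. The median fell to 1.17 (1.00 without miR-1937b) with the mean of the other assays as reference, and was 0.79 to 2.66 (0.77 to 2.58) with a sample left out. Of the 7, 0 to 1 passed, the 1 being miR-1937b without WT replicate 2, with the same limit. Over all assays 0 were lower and 1 higher; 2 were lower without a ceiling, 1 with each block on its own, 2 with the mean and 1 with the median of all tested assays as reference, and 0 to 2 lower and 0 to 2 higher with a sample left out. The cause of these changes was not tested. Differences in control Ct kept their sign for each control.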
